A study of Mus musculus with 6 samples.

Results

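The photoreceptor ribbon synapse genes are 10 genes whose products build the output terminal of rods and cones: Cacna1f, Cacna2d4, Cabp4, Ctbp2, Bsn, Pclo, Rims1, Unc119, Stx3 and Slc17a7. They were chosen by name, from known roles at this terminal, out of the 12393 genes that the array annotation names singly. Retinal total RNA had been taken from C57BL/6 mice at postnatal day 7 and hybridised to 6 Affymetrix arrays. Of these, 3 arrays held RNA of knockout mice (KO), whose single targeted allele the series design writes as -/Y, and 3 held RNA of wildtype mice (WT). The sources used here name neither littermates nor the number of animals behind an array, so p-values cover only the spread between these arrays, part of which may be technical. In whole retina, fewer cells of a type and less RNA per cell cannot be told apart, and with so few arrays the precision is limited throughout.

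Rods and cones release glutamate without pause in darkness. Their vesicles are held on a ribbon, a plate anchored at the active zone, beside L-type calcium channels that open at the depolarised dark potential. In mice these terminals are still being assembled in the first postnatal weeks, and ribbons, channels and postsynaptic contacts come together in the outer plexiform layer around eye opening. The member genes are not all particular to rods and cones, and their signals in whole retina can come from other cells too. As examples, Bsn and Pclo also serve the conventional synapses of amacrine cells and Stx3 the ribbon synapses of bipolar cells. Ctbp2 also encodes a nuclear protein, and these examples are not a full list.

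Of the 10 genes, 7 had at least 1 probe set annotated to them alone, 12 probe sets in all. For Cacna2d4, an auxiliary calcium channel subunit, Rims1, an active zone scaffold, and Slc17a7, the transporter that loads vesicles with glutamate, the annotation used gives no probe set, and they were not analysed here. Of the 12 probe sets, 9 (of 6 genes) had a mean scaled signal above 62.4, the 40th percentile of all probe sets, and entered the test. The other 3, both of Bsn and 1 of Pclo, lay below that limit. Signals are linear values scaled to the same trimmed mean on each array.

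None of the 9 tested probe sets passed the test of KO against WT retinae in limma after Benjamini-Hochberg adjustment over all 13575 probe sets tested (adjusted p = 0.999 for each), where 0.0147% of all probe sets passed. At an unadjusted p under 0.05 the count was 0 of 9, against 3.82% of all probe sets. The KO and WT values overlapped for 9 of 9, while the groups did not overlap for 9.1% of all probe sets. The log2 fold changes, KO over WT, were negative for 6 of the 9 and positive for 3, with 49.9% of all probe sets negative and 50.1% positive. With median scaling 5 were negative and 4 positive, and without rescaling, where the median of all probe sets was 0.29, 4 were negative and 5 positive. Without KO array 3, 8 were negative and 1 positive. Their median was -0.13, against 0.00031 over all probe sets tested. Fold changes are of the scaled signal plus a pseudocount of 19.1, which understates the change of dim probe sets.

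**Figure D1:**
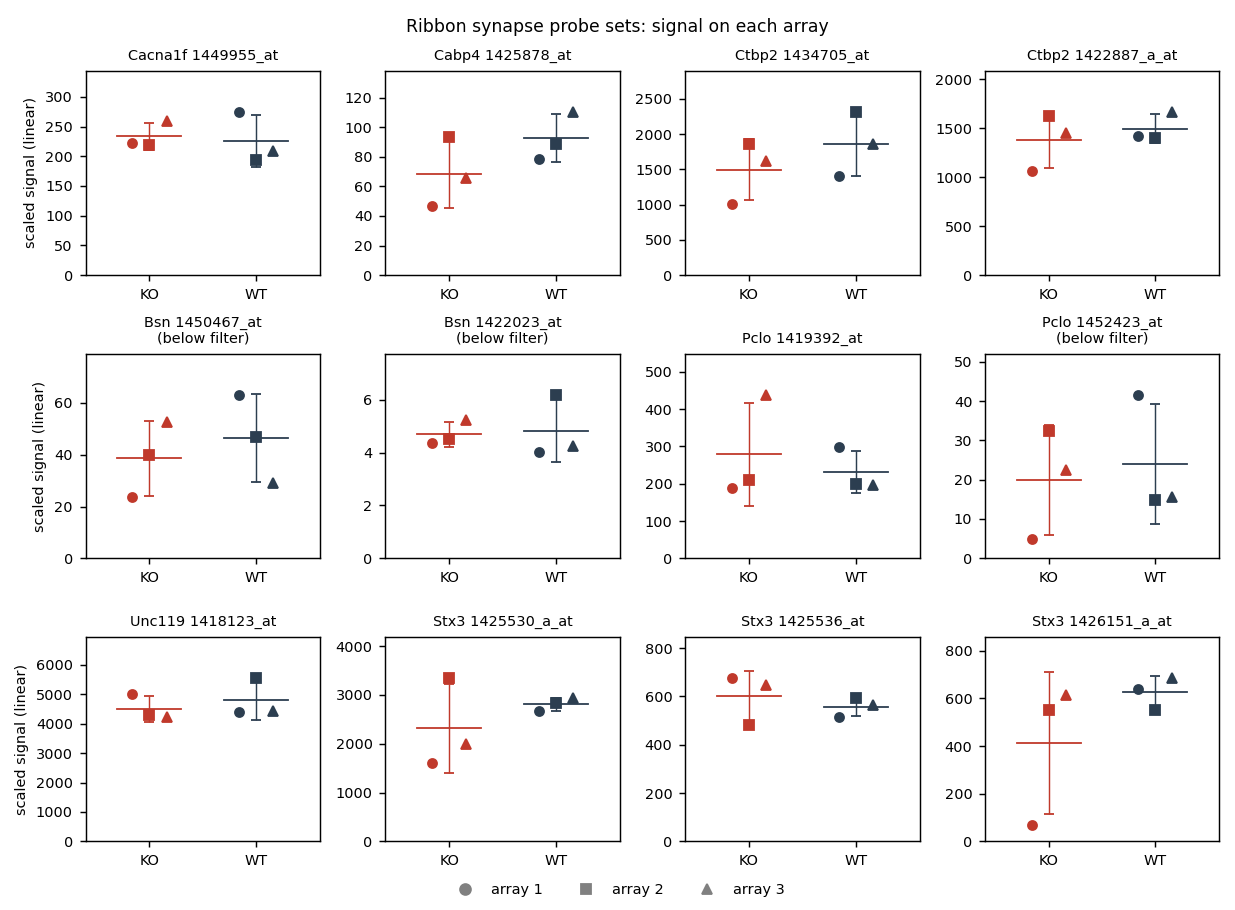
Scaled signal (linear axes from 0) of the 12 probe sets in the 3 KO arrays (red, left) and the 3 WT arrays (dark blue, right), with the array number as the marker shape, the group mean as a line and the SD as a bar (n = 3). The KO and WT points overlap in every panel, and KO array 1 lies far below the other 5 arrays for Stx3 1426151_a_at, at 70.4.

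Among the genes of calcium entry, Cacna1f encodes the pore-forming subunit of the terminal's L-type channel. Its probe set 1449955_at had scaled signals of 222, 219 and 260.0 in KO arrays 1 to 3, against 275, 193 and 209 in WT arrays 1 to 3. The highest and the lowest value were both WT, so the KO values lay inside the WT range. The means were 234 ± 22.8 in KO and 226 ± 43.7 in WT retinae (SD, n = 3 each), with a log2 fold change of 0.06 ± 0.18 (SE; limma adjusted p = 0.999). The 95% interval ran from -0.35 to 0.47, which is 0.783-fold to 1.38-fold.

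Cabp4 encodes a calmodulin-like protein that binds the channel and moves its activation to more negative voltages. Probe set 1425878_at had 46.5, 93.3 and 65.9 in KO arrays, against 78.8, 88.5 and 111 in WT arrays. KO arrays 1 and 3 were the lowest values, while KO array 2 lay above WT arrays 1 and 2. The means were 68.6 ± 23.5 in KO and 92.6 ± 16.3 in WT retinae (SD, n = 3 each), a KO mean 0.740 times that of WT. On the log2 scale the difference, KO over WT, was -0.37 ± 0.24 (SE; adjusted p = 0.999 in limma), with a 95% interval of -0.92 to 0.17. The mean signal of this probe set stood at the 45.5th percentile of all probe sets, close to the limit at the 40th.

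Of the ribbon and active zone genes, Ctbp2 encodes Ribeye, the main protein of the ribbon, as well as the nuclear corepressor CtBP2. Ribeye is made from a start of its own inside the gene, with a first exon that CtBP2 lacks and a shared remainder. RefSeq (GRCm38.p6) lists 2 starts of the gene, both on the minus strand of chromosome 7, at chr7:133081811-133082110 and, farther along the transcript, at chr7:133015198-133015497. The table does not say which start belongs to which protein. The windows are shown because the array annotation does not tell from which start the RNA bound by either Ctbp2 probe set came. Each holds 250 bases before the start and 50 from it on. Capitals mark GGATTA, or TAATCC where it reads on the opposite strand, the letters that the photoreceptor homeodomain factor Crx and its relative Otx2 recognise.
Ctbp2, first start: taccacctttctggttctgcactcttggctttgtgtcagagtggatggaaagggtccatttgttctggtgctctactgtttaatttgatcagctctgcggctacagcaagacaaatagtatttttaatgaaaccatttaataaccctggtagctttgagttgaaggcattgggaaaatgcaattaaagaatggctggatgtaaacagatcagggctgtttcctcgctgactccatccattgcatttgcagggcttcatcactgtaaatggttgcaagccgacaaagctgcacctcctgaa
Ctbp2, second start: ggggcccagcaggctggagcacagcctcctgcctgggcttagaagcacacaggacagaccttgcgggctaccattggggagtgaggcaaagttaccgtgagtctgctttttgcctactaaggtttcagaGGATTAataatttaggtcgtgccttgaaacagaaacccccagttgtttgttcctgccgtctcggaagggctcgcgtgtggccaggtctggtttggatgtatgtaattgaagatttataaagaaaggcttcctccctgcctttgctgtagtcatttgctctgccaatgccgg
The second window held 1 match, beginning 121 bases before the start, and the first held none. Of all 32851 windows in the table, 7.06% had at least 1 match on either strand. The match is a description of letters and not of binding.

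Probe set 1434705_at of Ctbp2 had scaled signals of 1009.5, 1858 and 1620.5 in KO arrays, against 1404, 2319 and 1856 in WT arrays. KO array 1 was lowest and WT array 2 highest, and the other 4 were intermixed. The log2 fold change was -0.33 ± 0.25 (SE; adjusted p = 0.999 in limma), from means of 1496 ± 438 in KO and 1859.7 ± 458 in WT retinae (SD, n = 3 each). Probe set 1422887_a_at, the other of Ctbp2, had 1065, 1623 and 1445 in KO arrays, against 1423, 1395 and 1669 in WT arrays. Again KO array 1 was lowest, and KO arrays 2 and 3 lay within the WT range. The means were 1378 ± 285 in KO and 1496 ± 151 in WT retinae (SD, n = 3 each), and the log2 fold change was -0.13 ± 0.17 (SE; adjusted p = 0.999 in limma). The 95% intervals were -0.88 to 0.23 and -0.52 to 0.25.

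Pclo encodes Piccolo, a very large scaffold whose shorter variant, Piccolino, is the form at ribbon synapses. Probe set 1419392_at had 188, 209.9 and 439 in KO arrays, against 297, 200.01 and 197 in WT arrays. KO array 3 stood above the other 5 arrays, and KO array 1 was the lowest. The means were 279 ± 139 in KO and 231 ± 57.2 in WT retinae (SD, n = 3 each), and the log2 fold change was 0.18 ± 0.30 (SE; adjusted p = 0.999 in limma; 95% interval -0.50 to 0.86). Without KO array 3 it was -0.18. The second Pclo probe set, 1452423_at, was below the limit, with 4.86, 32.4 and 22.4 in KO arrays, against 41.6, 14.8 and 15.7 in WT arrays.

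Bsn encodes Bassoon, which anchors the ribbon to the active zone. Both of its probe sets were below the limit. Probe set 1450467_at had 23.5, 39.7 and 52.5 in KO arrays, against 63.2, 46.7 and 29.3 in WT arrays, at the 32.1st percentile of all mean signals. Probe set 1422023_at had 4.37, 4.503 and 5.24 in KO arrays, against 4.03, 6.20 and 4.25 in WT arrays. In a fit with no limit on signal, the log2 fold changes were -0.18 and -0.01, with limma adjusted p = 0.999 for each. The deposited table gives no detection calls, so whether these low signals stand above background is unknown.

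Among the genes of release and transport, Unc119 encodes a lipid-binding chaperone of photoreceptors that carries acylated proteins such as transducin and is found at the ribbon synapse, where it binds Ribeye. RefSeq lists 3 starts for it on the plus strand of chromosome 11. The window of the second, chr11:78345334-78345633, is shown as the only one of the 3 with a match to the Crx letters, again in capitals.
Unc119, second start: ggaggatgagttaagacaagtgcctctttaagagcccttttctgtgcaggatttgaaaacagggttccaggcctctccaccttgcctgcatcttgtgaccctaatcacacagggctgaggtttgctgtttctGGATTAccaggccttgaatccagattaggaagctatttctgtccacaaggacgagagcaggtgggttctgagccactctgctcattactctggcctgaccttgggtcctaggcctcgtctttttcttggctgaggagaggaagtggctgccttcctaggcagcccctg
The match began 118 bases before the start. Probe set 1418123_at of Unc119 had scaled signals of 5011, 4289.6 and 4216 in KO arrays, against 4386, 5551 and 4431 in WT arrays. WT array 2 was highest and KO arrays 2 and 3 lowest, with KO array 1 above WT arrays 1 and 3. The means were 4506 ± 439 in KO and 4789 ± 660.1 in WT retinae (SD, n = 3 each). The log2 fold change was -0.08 ± 0.12 (SE; adjusted p = 0.999 in limma), and its 95% interval of -0.36 to 0.19 spans 0.778-fold to 1.14-fold. Among the 9 tested members this was the narrowest interval.

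Stx3 encodes syntaxin-3, the membrane SNARE protein that drives vesicle fusion at ribbon synapses, where conventional synapses use syntaxin-1. Its single RefSeq window, chr19:11819354-11819653 on the minus strand, is shown because its 3 probe sets disagreed, as described next. The match to TAATCC begins at the 31st base, counting the start as 1.
Stx3: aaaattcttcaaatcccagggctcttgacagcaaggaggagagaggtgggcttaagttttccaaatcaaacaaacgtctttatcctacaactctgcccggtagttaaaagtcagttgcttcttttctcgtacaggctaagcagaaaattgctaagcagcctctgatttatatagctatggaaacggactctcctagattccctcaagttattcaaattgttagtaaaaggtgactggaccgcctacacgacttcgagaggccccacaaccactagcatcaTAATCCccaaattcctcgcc
Of the 11 windows that the table holds for 8 of the 10 genes, 3 had a match, the ones shown with capitals here. The windows of Cacna1f, Bsn, Pclo, Rims1 and Slc17a7 had none, which says only that these letters are not in them. Cabp4 and Cacna2d4 have no entry.

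The 3 probe sets of Stx3 gave different pictures of the same arrays. Probe set 1425530_a_at had scaled signals of 1599, 3349 and 1992 in KO arrays, against 2665, 2826 and 2927 in WT arrays. KO arrays 1 and 3 lay below, and KO array 2 above, all 3 WT arrays, which were close together (2313 ± 918 in KO and 2806 ± 132 in WT; SD, n = 3 each). The log2 fold change was -0.35 ± 0.23 (SE; adjusted p = 0.999 in limma; 95% interval -0.86 to 0.17). Probe set 1425536_at ran the other way, with 677, 482 and 647 in KO arrays, against 516, 591 and 564 in WT arrays. Here KO arrays 1 and 3 lay above, and KO array 2 below, all WT arrays, and the log2 fold change was 0.10 ± 0.17 (SE; adjusted p = 0.999 in limma).

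Probe set 1426151_a_at of Stx3 had 70.4, 553 and 616 in KO arrays, against 639, 553 and 686.2 in WT arrays. KO array 1 stood alone, and the other 5 arrays lay between 553 and 686.2. The log2 range over the 6 arrays was 2.98, at the 99.8th percentile of all probe sets tested, whose median range was 0.62. The means were 413 ± 298 in KO and 626 ± 67.7 in WT retinae (SD, n = 3 each). The log2 fold change was -1.01 ± 0.62 (SE; adjusted p = 0.999 in limma), with a 95% interval of -2.39 to 0.37, or 0.190-fold to 1.30-fold. Without KO array 1 it was -0.09. Suffixes such as _a_at mark probe sets that match several transcripts of 1 gene, and which Stx3 transcripts each of the 3 probe sets binds was not determined here.

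**Figure D2:**
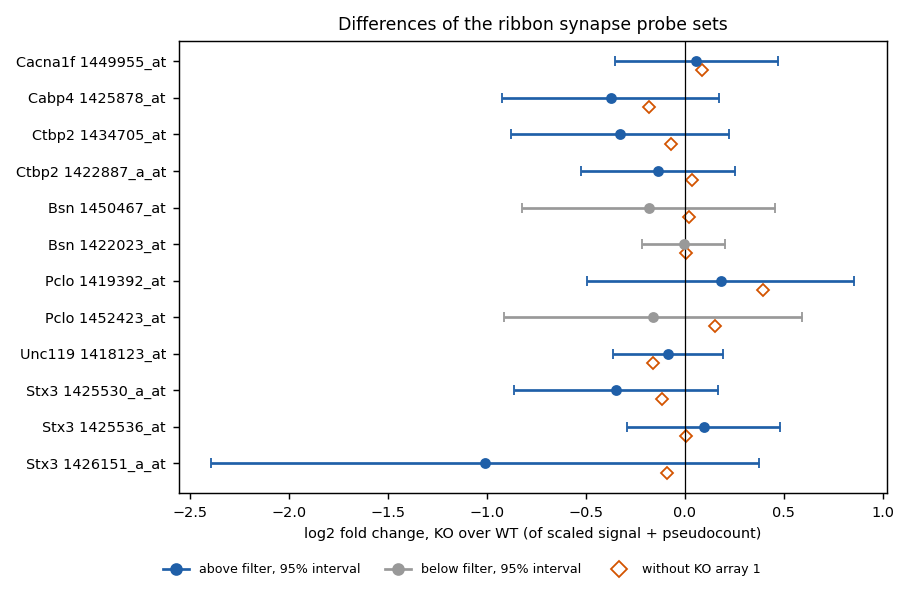
Log2 fold change of each probe set, KO over WT, with its 95% interval from limma (blue for the 9 above the signal limit, grey for the 3 below) and the value without KO array 1 (open orange diamonds). All 12 intervals include 0, and the widest, of Stx3 1426151_a_at, has its value at -1.01 with all arrays and -0.09 without KO array 1.

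KO array 1 was the lowest of the 6 arrays for 6 of the 9 tested probe sets: Cabp4, both of Ctbp2, Pclo 1419392_at, and Stx3 1425530_a_at and 1426151_a_at. Over all probe sets tested it was the lowest in 28.2% and the highest in 25.3%, more often than any other array in either direction. It was the highest for 1 of the 9, Stx3 1425536_at. Its correlation with the other arrays was 0.914 to 0.936, against 0.958 to 0.979 among the other 5. The 3' to 5' signal ratio of the Actb control, a measure of RNA integrity and labelling, was 2.17 on this array, against 1.69 and 1.90 on the other KO arrays and 1.44 to 1.64 on the WT arrays. Every KO array thus lay above every WT array. For the Gapdh control the ratio was 1.18, 0.884 and 1.16 on KO arrays 1 to 3, against 0.982, 0.824 and 0.880 on WT arrays 1 to 3. The 5' probe set of the 18S control had a scaled signal of 609 on KO array 1 and 2573 on WT array 2, with 38.8 to 54.9 on the other 4. The part of RNA integrity in the low member values of KO array 1, or in the differences between KO and WT, was not tested.

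Without KO array 1, the log2 fold changes came closer to 0 for Cabp4 (-0.18), Ctbp2 1434705_at (-0.07), Stx3 1425530_a_at (-0.12) and Stx3 1425536_at (0.01). Ctbp2 1422887_a_at was at 0.04. Values farther from 0 were found for Cacna1f (0.09), Pclo 1419392_at (0.39) and Unc119 (-0.16). Other arrays moved the values away from 0 when left out: without KO array 2, Cabp4 was at -0.57, Stx3 1425530_a_at at -0.65 and Stx3 1425536_at at 0.24, without WT array 1 Ctbp2 1434705_at was at -0.51, and without KO array 3 Stx3 1426151_a_at was at -1.51. Without KO array 1, 4 of the 9 probe sets were positive and 5 negative, with a median of -0.07, and the lowest adjusted p was 0.996 in limma.

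**Figure D3:**
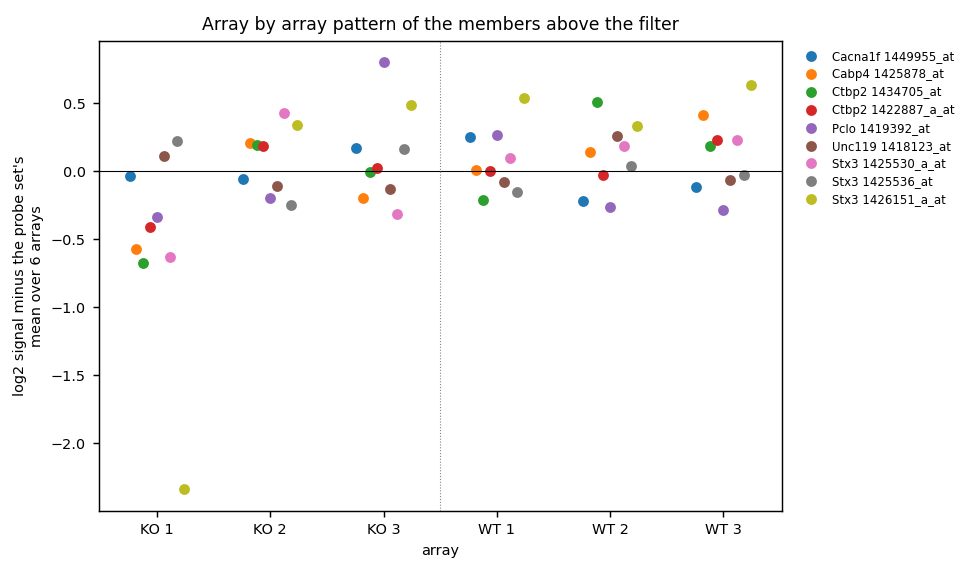
Log2 signal of the 9 tested probe sets on each array, minus the probe set's mean over the 6 arrays (KO arrays left of the dotted line, WT arrays right of it). KO array 1 holds the lowest value of 6 of the 9 probe sets, and Stx3 1426151_a_at is there at -2.34.

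Markers of the retinal cell types were read in both groups, without detection calls to tell presence from background. Of 10 rod markers, 8 could be measured and all were above the signal limit, among them Sag, Nrl, Crx and Gnat1. The others were not analysed here. Their summed signal was 23105, 27231 and 26803 in KO arrays 1 to 3, against 26754 to 28714 in WT arrays, so KO array 1 was also the lowest for rod markers. Of the 8, 2 had positive log2 fold changes (Rcvrn 0.26 and Pde6b 0.02) and 6 negative ones (median of the 8 at -0.12). The negative values were -0.41 for Prph2, -0.34 for Rom1, -0.18 for Sag, -0.15 for Nrl, -0.09 for Crx and -0.01 for Gnat1. None passed the adjusted threshold in limma. The groups did not overlap for 2 of the 8, Rom1 and Sag, both lower in KO. Over all probe sets tested the share without overlap was 9.1%. Among the other markers above the limit, the groups did not overlap for Nefl alone, an amacrine and ganglion cell marker higher in KO (0.26). Below the limit, the pigment epithelium marker Rpe65 (0.39) and the lens marker Mip (-0.38) also had no overlap. The 4 measured bipolar markers of 6 summed to 4287 to 4980.3 in KO and 4354 to 4669 in WT arrays. Otx2 made up the largest part of that sum, with a mean signal of 3180, against 831 for Pcp2, 376 for Vsx1 and 199 for Prkca. The sum therefore follows mainly Otx2, and how much of the Otx2 signal came from bipolar cells was not tested. The 8 measured amacrine and ganglion cell markers of 9 summed to 6997 to 7687 in KO and 6771 to 7035 in WT arrays. Of these neurons, amacrine cells use Bsn and Pclo at conventional synapses in the retina. Nefl made up the largest part of that sum, with a mean signal of 2513, against 1226 for Pax6, the next. Lens markers, of which 7 of 8 were measured and 5 were above the limit, ranged from 187 to 769.9 in KO and from 82.5 to 1254 in WT arrays. Pigment epithelium markers (7 of 7 measured, with the defining Rpe65 below the limit) summed to 3737 to 4453 in KO and 2306 to 4255 in WT arrays. Rlbp1 and Ttr made up the largest parts of that sum, with mean signals of 1338 and 1253. How much of their signal came from pigment epithelium was not tested. Skeletal muscle markers, 6 of 6 measured and 4 above the limit, summed to 302 to 375 in KO and 438 to 569 in WT arrays. The part of these other cells and tissues in the members' values was not tested.

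The members were set beside 78 other genes of the same synapse in 6 lists. Of these, 54 had a probe set of their own and 49 lay above the signal limit. None passed the adjusted threshold in limma, 20 had positive and 29 negative log2 fold changes, and the groups did not overlap for 8 of the 49 (16.3%, against 9.1% of all probe sets). In each gene the probe set of highest mean signal was read, whereas the share of 9.1% counts every probe set tested. The shares are therefore not like for like.

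Among 7 ribbon and active zone partners above the limit, 3 had positive and 4 negative values (median -0.06). Rims2, the relative of the unmeasured scaffold Rims1, had 204, 291 and 258 in KO arrays, against 316, 305 and 300.4 in WT arrays. All KO values lay below all WT values, and the log2 fold change was -0.28 ± 0.17 (SE; adjusted p = 0.999 in limma), while the other tested Rims2 probe set had 0.12. Without KO array 1 the value was -0.15. Kif3a, a kinesin motor subunit found on ribbons, had a log2 fold change of -0.25, and 0.04 without KO array 1. The other tested Kif3a probe set had -0.19 with all arrays.

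Of 9 calcium channel and calcium handling genes above the limit, 4 had positive and 5 negative values (median -0.03). Cacna2d2 encodes an auxiliary channel subunit of the same family as the unmeasured Cacna2d4. It had scaled signals of 617, 337 and 408 in KO arrays, against 304, 188 and 238 in WT arrays, without overlap. Its log2 fold change was 0.83 ± 0.25 (SE; 95% interval 0.27 to 1.39), with an unadjusted p of 0.0081 that did not pass adjustment over all probe sets (limma adjusted p = 0.999). Without KO array 1 it was 0.59, and the other Cacna2d2 probe sets had mean signals of 3.64 and 5.33, below the limit. Cacna2d3, another such subunit, had 339, 359 and 394 in KO arrays, against 330.04, 291 and 328 in WT arrays, also without overlap, with a log2 fold change of 0.19. Cacna1d, an L-type channel found in many neurons, had 0.48, and its second probe set -0.07.

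Of 14 genes of vesicles and the release machinery, 6 had positive and 8 negative values (median -0.05), and the groups did not overlap for Vamp2, Syt1, Napa and Stx4a. Vamp2 encodes synaptobrevin, the vesicle SNARE that pairs with syntaxin. Its signals were 1107, 1045 and 1021 in KO arrays, against 769, 652 and 774 in WT arrays, and its log2 fold change was 0.52 ± 0.14 (SE; unadjusted p = 0.0043; limma adjusted p = 0.999). The other tested Vamp2 probe set had -0.64. Syt1, the calcium sensor of fast release, had 244, 1063 and 917 in KO arrays, against 1148, 1307 and 1354 in WT arrays. Its value on KO array 1 was far below the rest, as for Stx3 1426151_a_at, and its log2 fold change of -0.998 was -0.35 without that array. The other tested Syt1 probe set had -0.75, with overlapping groups. Napa, the cofactor that disassembles SNARE complexes, had 0.20, and the syntaxin Stx4a, a plasma membrane SNARE, had 0.22.

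Of 6 terminal scaffold and adhesion genes above the limit, 1 had a positive and 5 negative values (median -0.04), with the scaffold Lin7c at -0.52 (-0.13 without KO array 1) and the adhesion molecule Cadm1 at -0.08. The other tested probe sets ran from -0.91 to 0.03 for Lin7c and from -0.90 to -0.12 for Cadm1. The 7 postsynaptic genes of bipolar cells, which answer the glutamate that the terminal releases, had 4 positive and 3 negative values (median 0.10). Gng13, a G protein subunit of ON bipolar cells, had 181, 114 and 120.2 in KO arrays, against 89.9, 80.7 and 111 in WT arrays, without overlap, and a log2 fold change of 0.46 ± 0.22 (SE; limma adjusted p = 0.999), or 0.28 without KO array 1. Rgs7, which speeds the shutoff of that G protein, had 0.16. Of 6 Unc119 cargoes and partners above the limit, 2 had positive and 4 negative values (median -0.02). Arl3, the GTPase that releases cargo from Unc119, had a log2 fold change of 0.12, and the cone transducin Gnat2 had -0.04.

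**Figure D4:**
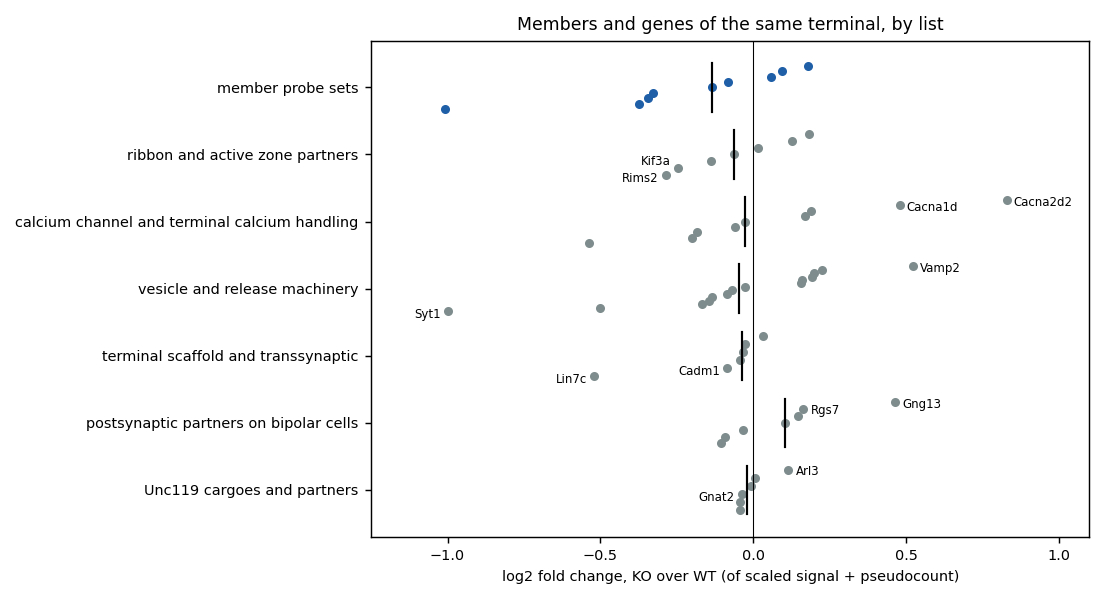
Log2 fold change, KO over WT, of the 9 tested member probe sets (blue) and of the 49 other genes of the synapse above the signal limit (grey) in their 6 lists, with the median of each row as a black line. The labelled genes are those named by rule in each list, and the member median lies at -0.13.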

How the data were processed

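Each deposited value is the linear signal intensity of 1 probe set on 1 array, from MAS5 according to the submitters' processing notes. The version, scaling target and detection calls are not given in the sources used here. Groups and replicate numbers came from the labels. The 64 control probe sets were left out of the fit. The trimmed mean intensity per array was 263 to 304 in KO and 171 to 312 in WT arrays before scaling, so each array was scaled to a common mean after trimming 2% at each end. The pseudocount was the 20th percentile of all scaled signals. Probe sets with a mean above the 40th percentile were tested, 13575 of 22626, a limit set on all 6 arrays together. The KO minus WT difference came from limma 3.58.1 under R 4.3.3 (lmFit, then eBayes allowing a trend with intensity), with Benjamini-Hochberg adjustment over all probe sets tested.

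Gene names came from the platform's annotation and were brought up to date by Entrez identifier: 20380 had 1 symbol, 691 several and 1555 none, and only those with 1 symbol were named. Promoter windows are RefSeq sequences of GRCm38.p6. All 10 members were described with every probe set, and of each list up to 2 genes above the limit with the largest moderated statistic. Genes outside this rule (Cacna2d3, Napa and Stx4a, and the markers) were named after their values were seen. The members, lists and alternatives were chosen with earlier results of these data known. The fit was also run on simulated arrays with added changes, all larger than those of the members, and with no outlying array. That run cannot tell how well changes of the members' size would be found. The alternatives changed the scaling, the filter, the pseudocount or the variance model, weighted the arrays, took replicate number as a block, or left arrays out. The targeted gene is not reported here.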

Additional observations from a re-analysis of the deposited data

How the results depend on the processing

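No member probe set passed the threshold under any of the 17 alternatives run, and the lowest limma adjusted p of a member was 0.53 (Stx3 1425530_a_at, without KO array 2). The member median of -0.13 was 0.18 without rescaling, where the median of all probe sets was 0.29, and -0.01 without KO array 1 and WT array 2. With 1 array left out it ranged from -0.26 to -0.07. The count over all probe sets (2) was 10 without rescaling, 1 without a filter and 4 without KO array 1 and WT array 2, and leaving out single arrays gave 0 to 4 (0 without WT array 3, 4 without WT array 2, 1 without KO array 2 or 3). The cause was not tested. Correlations between the deviations of same-numbered arrays were 0.18, -0.03 and 0.08. Those between differently numbered KO and WT arrays ran from -0.29 to 0.26. With so few arrays these values cannot tell whether the numbers are pairs, and the main fit did not take them as such. With the replicate block, 2 probe sets and 0 members passed.

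Signs turned in 24 of 204 member values, none of them past the threshold. With median scaling Bsn 1422023_at was at 0.013 and Unc119 at 0.011, and with quantile normalization Bsn 1422023_at was at 0.014. Without rescaling Ctbp2 1422887_a_at (0.18), Bsn 1450467_at (0.035), Bsn 1422023_at (0.057) and Unc119 (0.23) turned, and with array weights Ctbp2 1422887_a_at (0.013). Without KO array 1 and WT array 2 the turned values were Cacna1f (-0.0070), Ctbp2 1434705_at (0.10), Bsn 1450467_at (0.041), Bsn 1422023_at (0.045) and Pclo 1452423_at (0.0080). With 1 array left out the ranges that crossed 0 were -0.038 to 0.20 for Cacna1f, -0.26 to 0.038 for Ctbp2 1422887_a_at, -0.38 to 0.021 for Bsn 1450467_at, -0.030 to 0.034 for Bsn 1422023_at, -0.18 to 0.39 for Pclo 1419392_at, -0.40 to 0.15 for Pclo 1452423_at and -0.16 to 0.027 for Unc119.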
